A study of Homo sapiens with 30 samples.

Results

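The 10 genes described here encode 3 receptors of the epidermal growth factor (EGF) receptor family (EGFR, ERBB2 and ERBB3), 4 of their ligands (AREG, EREG, HBEGF and TGFA) and 3 products that restrain the signal (ERRFI1, SPRY2 and SPRY4). They were taken by gene symbol from a table of 58780 genes, in which each symbol named 1 row, and all 10 were among the 22919 genes with enough counts to be tested. The cells were A549, an established human lung adenocarcinoma line, and the assay was precision run-on sequencing (PRO-seq), which labels the RNA that engaged polymerases are extending and so follows ongoing transcription and not the stock of mature mRNA. The 30 libraries formed 15 groups of 2. Dexamethasone (Dex), a synthetic glucocorticoid, was given at 100 nM. GSK591, which inhibits the type II arginine methyltransferase PRMT5, and MS023, which inhibits type I arginine methyltransferases, were given at 1 µM. One group was untreated. Dex alone was given for 15 min or 3 h, each inhibitor was given together with Dex for 3 h or alone for 2, 4 or 7 days, and cells that had had either inhibitor for 7 days then received Dex for 15 min or 3 h. All groups carried the same low DMSO concentration, and the untreated cells were labelled with the 15 min time only, so for the longer treatments time in culture and treatment cannot be told apart. The labels do not say that the 2 libraries of a group came from separate cultures, and p-values then measure only the spread between these libraries, which may be technical.

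EGF family ligands are made as membrane-anchored precursors, and once shed they bind receptors of the family, which pair, phosphorylate each other and switch on the RAS-ERK cascade. EGFR binds AREG, EREG, HBEGF and TGFA, whereas ERBB2 has no known ligand of its own and ERBB3, a receptor for neuregulins, has little kinase activity and signals in pairs with its relatives. ERRFI1 (also called MIG6) binds and inhibits the kinase domains of EGFR and ERBB2, and SPRY2 and SPRY4 are Sprouty proteins that dampen the RAS-ERK cascade below growth factor receptors. ERRFI1 is a well-known target of the glucocorticoid receptor in epithelial cells, and airway and alveolar epithelium uses this receptor family in growth and repair.

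Total counts ran from 8441211 to 13069598 per library, and the 10 genes took from 1244 to 2631 of these counts. Mitochondrial genes held 58.7% to 78.7% of the counts. Values below are CPM, counts relative to library size, scaled by the trimmed mean of M-values (TMM), and in bulk samples fewer cells of a kind and less RNA per cell cannot be told apart. Of the keratins looked at, KRT7 (111 to 459 CPM), KRT8 (157 to 456 CPM) and KRT18 (56.5 to 189 CPM) were abundant. KRT19 was lower, at 6.345 to 33.83 CPM, and EPCAM and CDH1, also epithelial, stayed at 0.957 to 6.65 CPM. The blood cell markers PTPRC, CD3E and LYZ had 0 to 5 counts per library, CD14 had 0.613 to 5.82 CPM, the 3 endothelial markers summed to 0.208 to 2.24 CPM and the 3 fibroblast markers to 3.32 to 10.1 CPM. The replicate pairs correlated across 11117 genes at r = 0.959 to 0.983 on the log2 CPM scale except MS023 given with Dex, at 0.923. The second library of that group stood apart, with 1.80% of its nuclear counts in processed pseudogenes against 1.04% to 1.39% in the other 29 libraries, so results on that group are given by library. Some pairs differed in mitochondrial share, among them MS023 with Dex (71.2% and 61.0%) and Dex alone at 3 h (74.7% and 69.2%). The pairs with 7 days of GSK591 had 73.7% and 78.7% without Dex, 78.2% and 69.9% at 15 min of Dex, and 71.1% and 76.0% at 3 h.

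Across treatments these genes did not move as a block. Dex raised ERRFI1 and SPRY2 within 15 min and lowered EREG by 3 h, MS023 lowered EGFR at 2, 4 and 7 days, both inhibitors lowered EREG at 2 and 4 days, and SPRY4 fell with Dex after MS023. A gene was called at an adjusted p below 0.05 in edgeR's quasi-likelihood test, with Benjamini-Hochberg adjustment over all tested genes. Dex changed 2 of the 10 genes at 15 min, where 1.26% of all tested genes were called, and 4 of 10 at 3 h, where 10.5% were called. MS023 changed 3 of 10 at each of 2, 4 and 7 days, against 10.4%, 14.2% and 13.6% of all genes. GSK591 changed 1 of 10 at 2 days (5.64% of all genes), 4 of 10 at 4 days (17.2%) and 2 of 10 at 7 days (13.2%). The counts at 2 and 7 days are near their backgrounds. Dex after 7 days of GSK591 changed 2 of 10 at 15 min (2.09% of all genes) and 2 of 10 at 3 h (9.85%), the latter also near its background. Dex after MS023 changed 3 of 10 at 15 min (2.07%) and 4 of 10 at 3 h (11.1%). All comparisons with untreated cells share the same 2 untreated libraries, and the comparisons after an inhibitor share its 7-day libraries. With 2 libraries a group, separation alone says little, since between 35.6% and 59.8% of all tested genes had groups that did not overlap in any one comparison.

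**Figure D1:**
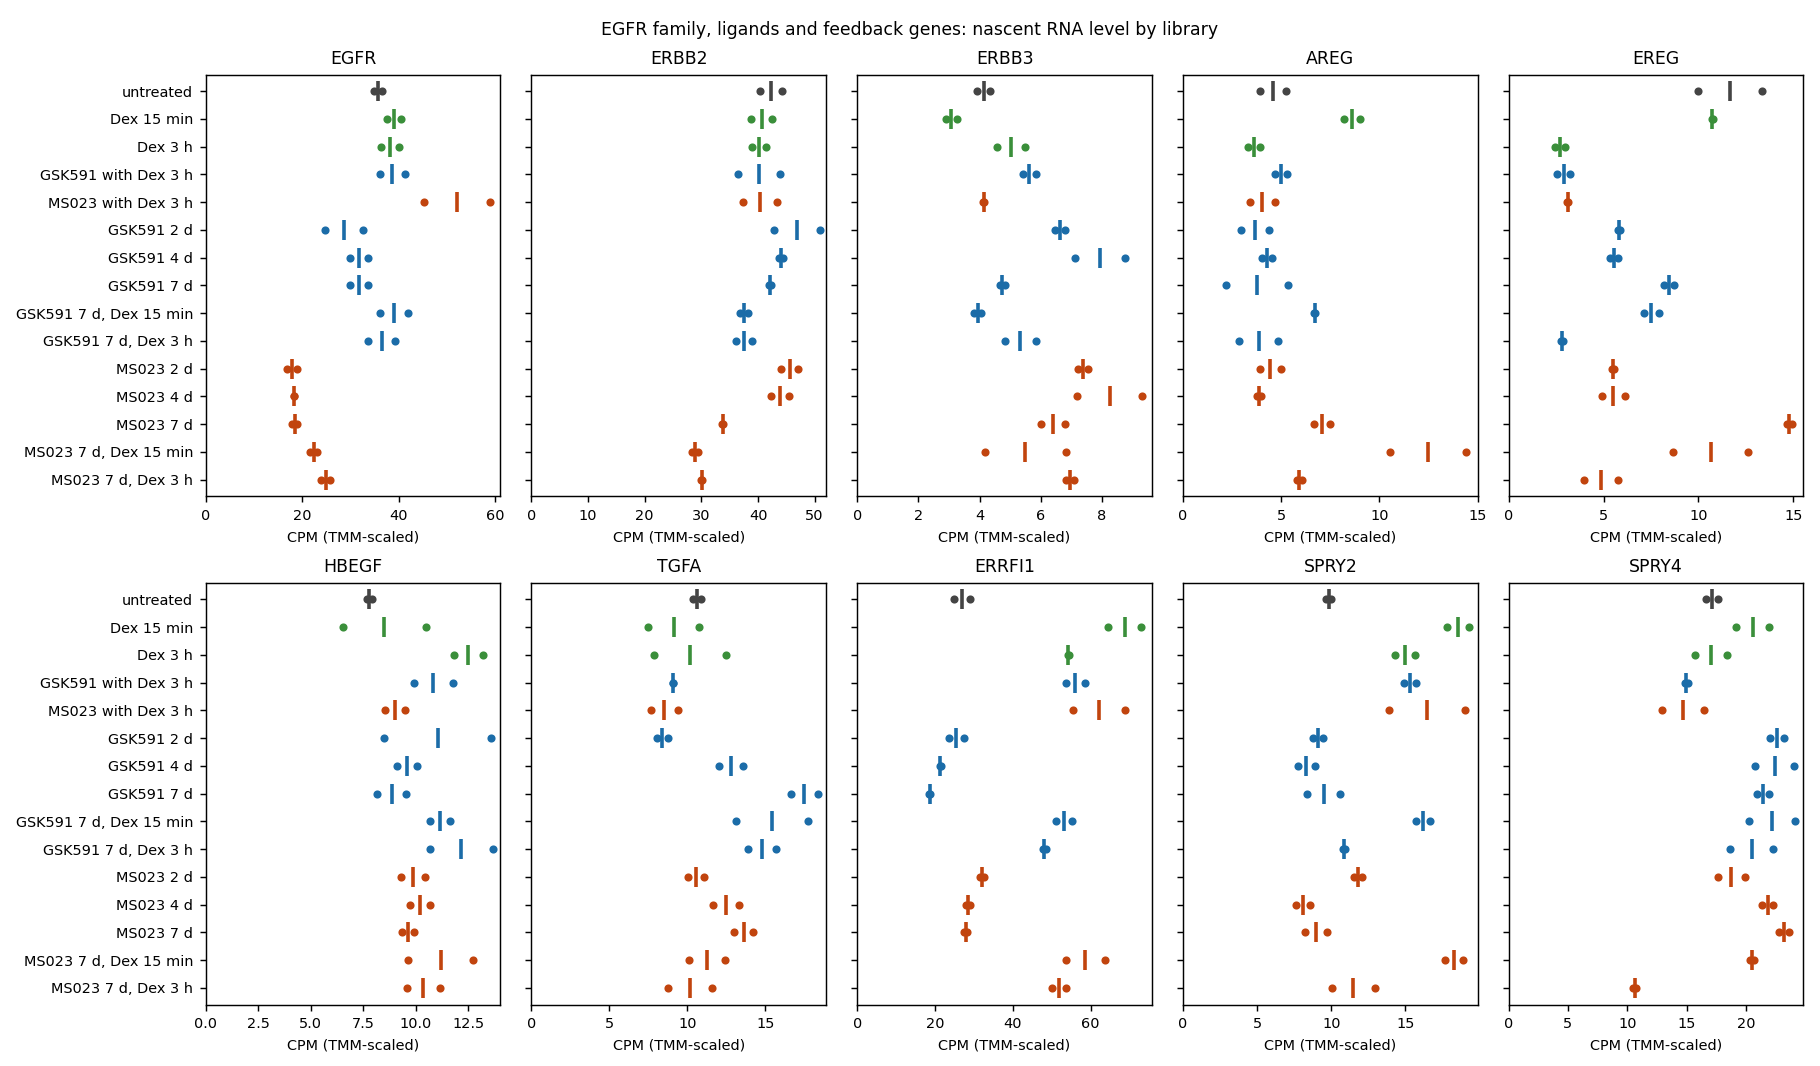
TMM-scaled CPM of the 10 genes (horizontal axis, 1 panel per gene) in each of the 15 groups (vertical axis). Dots are libraries and vertical bars are group means, with untreated cells in grey, Dex alone in green, groups with GSK591 in blue and groups with MS023 in orange. EGFR lies between 16.8 and 25.8 CPM in every library that had 2 to 7 days of MS023, and EREG lies below 6 CPM in every library that had 3 h of Dex.

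Between genes, levels can be compared only per length, here as CPM per kilobase of exon. In untreated cells ERRFI1 had the highest level, 6.45 ± 0.710 CPM per kilobase (SD, n = 2 here and below), and ERBB2 followed at 4.10 ± 0.265. SPRY2 at 3.23 ± 0.0693, EGFR at 2.86 ± 0.0919, AREG at 2.78 ± 0.557, SPRY4 at 2.61 ± 0.103, HBEGF at 2.58 ± 0.0566, TGFA at 2.14 ± 0.0771 and EREG at 2.04 ± 0.417 came next, and neighbours from EGFR to HBEGF and from TGFA to EREG lay within their spread. ERBB3 was lowest at 0.457 ± 0.0320 CPM per kilobase. Nascent reads also fall in introns, so these lengths order the genes only roughly.

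EGFR spans chr7:55019021-55211628 on the plus strand (hg38, GENCODE 29) and is overlapped on the other strand by EGFR-AS1 over 186 bases of exon; whether counting used strand is not given in the sources used here. In untreated cells EGFR had 36.6 and 35.0 CPM. With MS023 it had 19.0 and 16.8 CPM at 2 days, 18.3 and 18.4 CPM at 4 days, and 17.9 and 19.0 CPM at 7 days. All 6 MS023 libraries lay below both untreated ones, and the 3 times gave nearly the same level. EGFR fell by 1.00 ± 0.14 (SE) on the log2 scale at 2 days (edgeR adjusted p = 5.08e-07), by 0.96 ± 0.13 at 4 days (3.56e-07) and by 0.96 ± 0.13 at 7 days (5.09e-07). These calls held without any 1 library and in each other setting tried but total-count scaling.

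The fall of EGFR with MS023 depends on how libraries are scaled. The mitochondrial share of counts was 58.7% and 59.6% at 7 days of MS023 and 76.0% and 73.4% in untreated cells. EGFR stayed called at each time in a fit without mitochondrial and rRNA genes, and the part of this share was not tested further. Scaling by total counts alone shifted the median of all genes with at least 5 CPM upward by 0.66, 0.72 and 0.96 on the log2 scale at 2, 4 and 7 days, and on that scale EGFR differed by -0.32, -0.21 and 0.07, none of them called and the last of opposite sign. Taken relative to that shift the EGFR differences were -0.98, -0.93 and -0.89, close to those under TMM scaling. Both ways set levels against the typical gene, so this closeness was built in and gives no separate support. Whether transcription of EGFR per cell fell was not tested.

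With GSK591, EGFR had 32.5 and 24.8 CPM at 2 days, 29.9 and 33.7 CPM at 4 days, and 33.7 and 29.9 CPM at 7 days. These 6 libraries also lay below both untreated ones, but the differences did not pass the test, at -0.32 (95% confidence interval -0.59 to -0.06, edgeR adjusted p = 0.149), -0.17 (-0.43 to 0.09, 0.405) and -0.17 (-0.43 to 0.10, 0.455). Set directly against MS023, EGFR was higher with GSK591 by 0.68 ± 0.14 at 2 days (edgeR adjusted p = 0.00191), 0.79 ± 0.13 at 4 days (3.34e-05) and 0.79 ± 0.13 at 7 days (3.58e-05), comparisons in which 1 of 10 genes (2.69% of all genes), 2 of 10 (6.03%) and 4 of 10 (9.38%) were called. The 2-day call was lost without the first GSK591 library (0.214) or without the second MS023 library (0.0931). None of the 3 was called under total-count scaling, where the 7-day difference was -0.25 against a median shift of -1.06.

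Dex alone left EGFR at 37.6 and 40.6 CPM at 15 min and at 36.3 and 40.1 CPM at 3 h, differences of 0.13 (95% confidence interval -0.13 to 0.38) and 0.09 (-0.17 to 0.35) that were not called. After 7 days of MS023, EGFR had 21.6 and 23.1 CPM at 15 min of Dex and 24.0 and 25.8 CPM at 3 h. At 3 h both libraries lay above the MS023 libraries without Dex and below the untreated ones. This rise of 0.43 ± 0.13 (edgeR adjusted p = 0.0229) was lost without any 1 of the 4 libraries (0.0539 to 0.175), with DESeq2 (0.107) and under total-count scaling (0.411). The Dex response at 3 h was not shown to differ from that without inhibitor (interaction 0.34 ± 0.18, adjusted p = 0.605).

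ERBB2, the receptor without its own ligand, spans chr17:39687914-39730426 on the plus strand and is overlapped on the other strand by PGAP3 and MIEN1. It was the steadiest of the 10 genes together with HBEGF, its group means differing at most 1.62-fold. Untreated cells had 40.4 and 44.2 CPM, and Dex at 3 h left 41.4 and 39.0 CPM, a difference of -0.08 (95% confidence interval -0.30 to 0.15). MS023 for 7 days gave 33.9 and 33.7 CPM, followed by Dex 28.3 and 29.4 CPM at 15 min and 30.2 and 29.9 CPM at 3 h. All 6 libraries of the 7-day MS023 arms lay below every other library in the study. The 7-day fall of 0.32 ± 0.11 (edgeR adjusted p = 0.0417) rests on a narrow margin, being lost without any 1 of the 4 libraries (0.0808 to 0.313), with DESeq2 (0.125) and with no filter on low counts (0.188), and it turned to a rise of 0.69 under total-count scaling (0.00362), which is below that scaling's median shift of 0.96.

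ERBB3, on the plus strand at chr12:56076799-56103505, shares 31 exonic bases with AC034102.2 on its strand. It was the least transcribed receptor, with 4.34 and 3.93 CPM in untreated cells. GSK591 gave 6.45 and 6.78 CPM at 2 days, 8.74 and 7.12 CPM at 4 days, and 4.65 and 4.82 CPM at 7 days. MS023 gave 7.53 and 7.20 CPM at 2 days, 9.31 and 7.19 CPM at 4 days, and 6.02 and 6.80 CPM at 7 days. Every inhibitor library lay above both untreated ones, and with either compound the 4-day mean was the highest of the 3 times. ERBB3 rose by 0.94 ± 0.23 with GSK591 at 4 days (edgeR adjusted p = 0.00216), by 0.83 ± 0.23 with MS023 at 2 days (0.0122) and by 1.00 ± 0.22 with MS023 at 4 days (0.000996). The other 3 differences, 0.68 and 0.20 with GSK591 at 2 and 7 days and 0.63 with MS023 at 7 days, were not called (0.0818, 0.679 and 0.0514). The GSK591 call was lost without the first 4-day library (0.0693), and the 2-day MS023 call without any 1 library (0.0572 to 0.127) and with DESeq2 (0.0644). ERBB3 and EGFR had opposite signs at each time of MS023, and over the 15 group means of log2 CPM their r was -0.71, the lowest of the 45 pairs among these genes, a description over groups that share libraries' scaling.

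**Figure D2:**
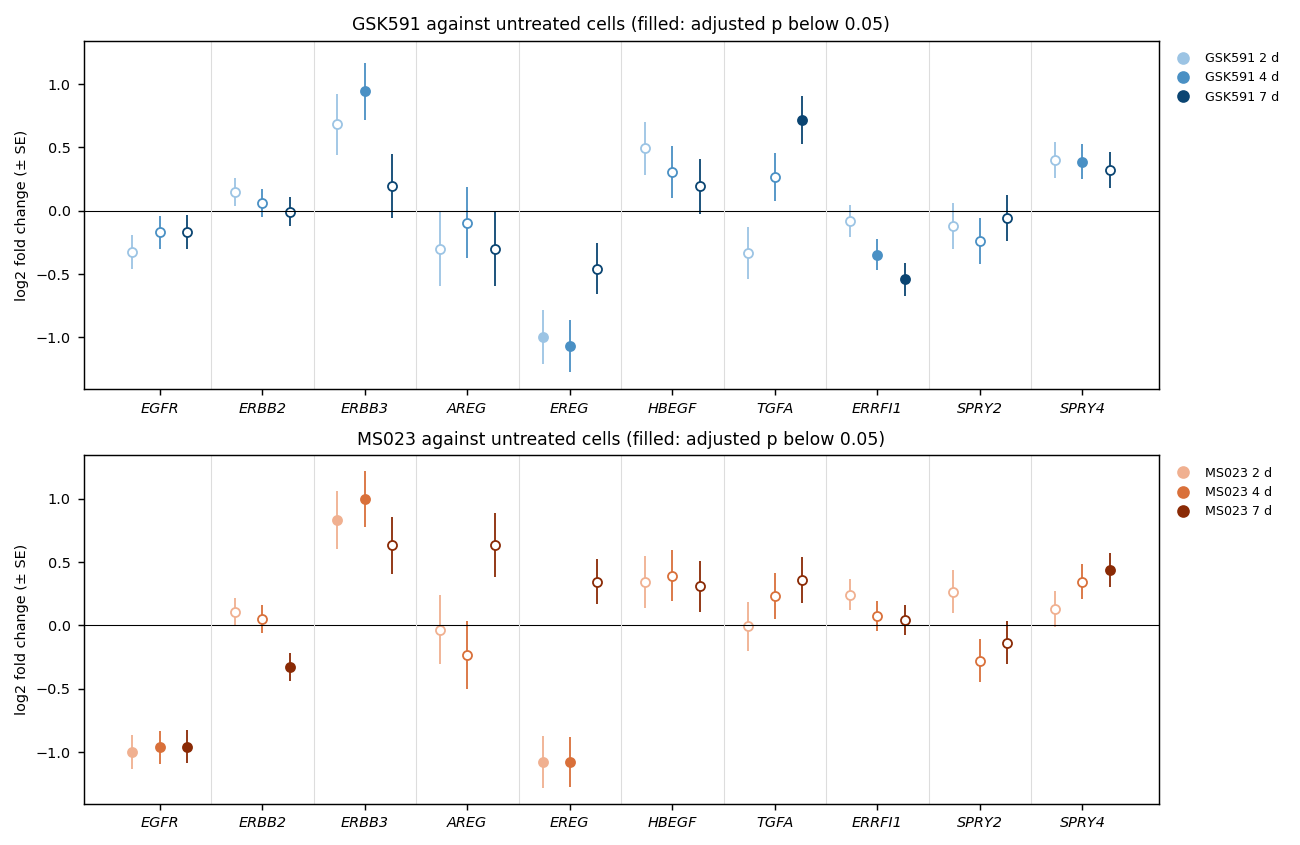
Log2 fold changes (vertical axis, ± SE from edgeR) of the 10 genes after 2, 4 and 7 days of GSK591 (upper panel) or MS023 (lower panel), each against untreated cells. Filled points passed the adjusted p threshold of 0.05. EGFR sits near -1 at all 3 times of MS023 and between -0.32 and -0.17 with GSK591, and EREG sits near -1 with both compounds at 2 and 4 days only.

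The ligands AREG and EREG lie on the plus strand of chromosome 4, EREG at chr4:74365143-74388751 and AREG at chr4:74445134-74455009, with no overlapping gene annotated on either. Amphiregulin (AREG) and epiregulin (EREG) are ligands of EGFR that many epithelial cells release and take up again. Their promoters are shown because the mean levels of these neighbours followed different courses with Dex. Each line is the 250 bases before the RefSeq transcript start (GRCh38.p14), 5′ to 3′, with capitals marking matches to the letters named below, at chr4:74364895-74365144 for EREG and chr4:74444886-74445135 for AREG.
EREG: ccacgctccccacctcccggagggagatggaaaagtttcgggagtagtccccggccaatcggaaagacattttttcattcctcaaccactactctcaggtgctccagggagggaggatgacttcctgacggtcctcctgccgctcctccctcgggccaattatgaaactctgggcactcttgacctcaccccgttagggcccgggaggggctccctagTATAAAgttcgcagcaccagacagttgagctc
AREG: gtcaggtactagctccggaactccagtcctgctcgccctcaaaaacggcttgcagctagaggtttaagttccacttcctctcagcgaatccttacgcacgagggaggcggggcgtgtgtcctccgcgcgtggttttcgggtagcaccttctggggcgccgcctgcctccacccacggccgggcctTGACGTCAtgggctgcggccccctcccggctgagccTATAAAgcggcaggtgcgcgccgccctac
Searched on both strands of 300-base windows that also hold 50 bases after the start, the TATA box letters TATAAA occur at -32 in EREG and at -29 in AREG, and 11.5% of 35116 such windows hold them. The cyclic AMP response element TGACGTCA occurs at -65 in AREG, and 1.85% of windows hold it. Neither window holds the glucocorticoid receptor half-site letters TGTTCT (14.8% of windows) or the AP-1 letters TGACTCA (4.95%). The matches in these windows do not overlap each other, and a match or its absence is a description of these letters only.

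EREG showed the deepest fall of the 10 genes. Untreated cells had 13.4 and 9.98 CPM, Dex for 15 min gave 10.8 and 10.7 CPM, and Dex for 3 h gave 2.98 and 2.44 CPM. The 15 min libraries lay within the untreated range (difference -0.12, 95% confidence interval -0.50 to 0.27), while both 3 h libraries lay far below it. The fall at 3 h was 2.09 ± 0.24 on the log2 scale (edgeR adjusted p = 2.88e-09), to 0.235 of the untreated level. In the comparison of 3 h with 15 min of Dex, added after the values were seen, 3 of 10 genes were called (10.8% of all genes), and EREG fell by 1.97 ± 0.24 (adjusted p = 2.45e-08).

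The fall of EREG with Dex was also seen in cells pretreated for 7 days. After GSK591, EREG went from 8.72 and 8.17 CPM to 7.92 and 7.12 CPM at 15 min and 2.76 and 2.87 CPM at 3 h. After MS023 it went from 14.7 and 14.9 CPM to 12.6 and 8.66 CPM at 15 min and 3.96 and 5.76 CPM at 3 h. In both series the 3 h libraries lay below all libraries without Dex. EREG fell at 3 h by 1.59 ± 0.25 after GSK591 (edgeR adjusted p = 5.02e-06) and by 1.61 ± 0.19 after MS023 (7.14e-09). Neither interaction with the inhibitor was called (0.50, 95% confidence interval -0.22 to 1.23, and 0.48, -0.15 to 1.12). All these Dex 3 h calls held without any 1 library and under each other setting tried.

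Both inhibitors alone moved EREG in time. GSK591 gave 5.78 and 5.86 CPM at 2 days, 5.76 and 5.32 CPM at 4 days, and 8.72 and 8.17 CPM at 7 days, and MS023 gave 5.57 and 5.45 CPM, 4.90 and 6.12 CPM, and 14.7 and 14.9 CPM. At 2 and 4 days all 8 libraries lay below the untreated ones, whereas at 7 days GSK591 still lay below and MS023 lay above. EREG fell with GSK591 by 1.00 ± 0.21 at 2 days (edgeR adjusted p = 0.00241) and 1.07 ± 0.21 at 4 days (0.000144), and with MS023 by 1.08 ± 0.21 (0.000257) and 1.08 ± 0.20 (8.79e-05). The 7-day differences from untreated cells, -0.46 and 0.35, were not called. At 7 days EREG was lower with GSK591 than with MS023 (-0.81 ± 0.19, adjusted p = 0.00346), a call lost without the second GSK591 library (0.062). The 2-day GSK591 call was lost without the first untreated library (0.112), and all 4 early falls were no longer called under total-count scaling, where they were -0.69, -0.64, -0.39 and -0.32 (0.0903 to 0.312).

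AREG, counted thinly at 19 to 173 reads per library, had a higher mean at 15 min of Dex than without it. Untreated cells had 5.23 and 3.93 CPM, Dex for 15 min gave 8.19 and 9.00 CPM, and Dex for 3 h gave 3.93 and 3.30 CPM. Both 15 min libraries were above the untreated range and the 3 h libraries were at or below its lower end. The 15 min difference of 0.91 ± 0.25 was not called (edgeR adjusted p = 0.0552), although it was called in 4 of the 7 other settings, among them no filter on low counts (0.0228) and the compared groups alone (0.0245). From 15 min to 3 h AREG fell by 1.24 ± 0.27 (adjusted p = 0.000878).

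After 7 days of GSK591, AREG had 2.21 and 5.36 CPM, then 6.69 and 6.74 CPM at 15 min of Dex and 4.85 and 2.87 CPM at 3 h. After MS023 it had 7.51 and 6.66 CPM, then 10.6 and 14.4 CPM at 15 min and 5.79 and 6.05 CPM at 3 h. The mean was highest at 15 min in all 3 series, and the 2 GSK591 libraries without Dex lay far apart. The 15 min rise was called after MS023 (0.81 ± 0.21, edgeR adjusted p = 0.0268) and not after GSK591 (0.86 ± 0.28, 0.113), and neither interaction was called (-0.10 and -0.06). The MS023 call was lost without either MS023 library that had no Dex (0.129 and 0.316), without the second 15 min library (0.466), with DESeq2 (0.144) and under total-count scaling (0.552).

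Between 15 min and 3 h AREG fell by 0.79 ± 0.28 after GSK591 (edgeR adjusted p = 0.044) and by 1.07 ± 0.22 after MS023 (0.000382), in comparisons that called 3 of 10 genes (14.2% of all genes) and 4 of 10 (12.9%). The first of these was lost without either 15 min library (0.106 and 0.193), without the second 3 h library (0.421), with DESeq2 (0.118), with the compared groups alone (0.0763) and under total-count scaling (0.254). At 7 days without Dex AREG was lower with GSK591 than with MS023 (-0.93 ± 0.27, adjusted p = 0.0185), a call lost without the first GSK591 library (0.552), without the first MS023 library (0.141) and with DESeq2 (0.0996). EREG fell over the same interval by 1.41 ± 0.25 after GSK591 (5.14e-05) and by 1.14 ± 0.20 after MS023 (3.34e-05).

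HBEGF, on the minus strand at chr5:140332843-140346631, encodes heparin-binding EGF-like growth factor, a ligand of EGFR and ERBB4. It had 7.90 and 7.66 CPM in untreated cells, 6.52 and 10.5 CPM at 15 min of Dex, and 11.8 and 13.2 CPM at 3 h. The 15 min libraries fell on both sides of the untreated ones and the 3 h libraries lay above them. HBEGF rose at 3 h by 0.68 ± 0.20 (edgeR adjusted p = 0.0216), a call lost without the second Dex library (0.165), without either untreated library (0.104 and 0.135) and with DESeq2 (0.0835). After GSK591 the 3 h value was 13.7 and 10.7 CPM against 9.53 and 8.17 CPM (difference 0.46, adjusted p = 0.171), and after MS023 it was 11.1 and 9.60 CPM against 9.35 and 9.92 CPM (0.11, 0.806). The untreated mean, 7.78 ± 0.170 CPM, was the lowest of the 15 group means.

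TGFA, which encodes transforming growth factor alpha and lies on the minus strand at chr2:70447280-70554193, was called by edgeR with GSK591 at 7 days only. It had 10.3 and 10.9 CPM in untreated cells and, with GSK591, 8.07 and 8.73 CPM at 2 days, 13.5 and 12.0 CPM at 4 days, and 16.6 and 18.4 CPM at 7 days. The 2-day libraries lay below the untreated ones and the 4-day and 7-day libraries above them. TGFA rose at 7 days by 0.72 ± 0.19 (edgeR adjusted p = 0.00608), a call lost without the second 7-day library (0.073), without the first untreated library (0.0638) and under total-count scaling (0.116). MS023 at 7 days gave 14.2 and 13.0 CPM, a difference of 0.36 that was not called (0.20). Dex for 3 h gave 7.87 and 12.5 CPM, on both sides of the untreated libraries.

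ERRFI1 lies on the minus strand at chr1:8004404-8026308 and is overlapped on the other strand by AL034417.4 over 155 exonic bases, and SPRY2 lies on the minus strand at chr13:80335976-80340951. Their promoters are shown because these 2 genes rose together with Dex and had the highest correlation of the 45 pairs, r = 0.89 over the 15 group means of log2 CPM. Each line gives the 250 bases before a RefSeq start (GRCh38.p14, minus strand, 5′ to 3′), at chr1:8026310-8026559 for ERRFI1 and chr13:80341127-80341376 for the first of 3 SPRY2 starts.
ERRFI1: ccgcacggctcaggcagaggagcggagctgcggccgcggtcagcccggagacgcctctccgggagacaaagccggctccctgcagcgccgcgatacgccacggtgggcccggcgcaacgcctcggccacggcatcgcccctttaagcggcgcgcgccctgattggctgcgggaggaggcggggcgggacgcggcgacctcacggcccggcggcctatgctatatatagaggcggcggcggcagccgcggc
SPRY2: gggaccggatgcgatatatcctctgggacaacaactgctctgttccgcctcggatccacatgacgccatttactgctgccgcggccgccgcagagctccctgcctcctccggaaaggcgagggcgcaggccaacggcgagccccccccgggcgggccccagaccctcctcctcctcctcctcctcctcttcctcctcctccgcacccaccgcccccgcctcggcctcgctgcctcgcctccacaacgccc
Neither window holds the exact letters searched for any of the 4 motifs, so no letters are in capitals. Variants of these letters, such as the tatatata near the end of the ERRFI1 line, were not searched. The windows of the other SPRY2 starts, inside the gene, hold TGTTCT once each, at -108 and -38. Of the 10 genes 9 had RefSeq windows, 13 in all, and 4 of the 9 had a TGTTCT match in at least 1 window (EGFR, ERBB2, SPRY2 and TGFA). Counted by window it was 5 of 13, where 14.8% of 35116 windows hold these letters. Genes with more windows have more chances of a match, so the count by gene cannot be set against that share.

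ERRFI1 was the strongest riser. Untreated cells had 24.9 and 29.1 CPM, Dex for 15 min gave 73.1 and 64.6 CPM, and Dex for 3 h gave 54.4 and 54.2 CPM. All 4 Dex libraries lay well above the untreated ones, and the 15 min libraries above the 3 h ones. ERRFI1 rose by 1.35 ± 0.12 at 15 min (2.54-fold, edgeR adjusted p = 3.25e-12) and by 1.01 ± 0.12 at 3 h (2.01-fold, 6.01e-09). The difference of 3 h from 15 min (-0.34 ± 0.11, adjusted p = 0.0381) was lost without any 1 of the 4 libraries (0.0556 to 0.326), with DESeq2 (0.114), with the compared groups alone (0.0611), with no filter on low counts (0.092) and under total-count scaling (0.22).

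The inhibitors alone changed ERRFI1 less. GSK591 gave 23.7 and 27.4 CPM at 2 days, 21.4 and 21.2 CPM at 4 days, and 18.8 and 18.4 CPM at 7 days, and MS023 gave 32.6 and 31.5 CPM, 29.1 and 27.9 CPM, and 28.3 and 27.5 CPM. With GSK591 the 4-day and 7-day libraries lay below the untreated range, while MS023 libraries at 4 and 7 days lay within it. ERRFI1 fell with GSK591 by 0.35 ± 0.12 at 4 days (edgeR adjusted p = 0.0474) and by 0.54 ± 0.13 at 7 days (0.00283), and it was lower with GSK591 than with MS023 at 4 days (-0.42 ± 0.12, 0.0256) and 7 days (-0.59 ± 0.13, 0.00112). The 4-day fall was lost without either 4-day library or the second untreated one (0.15, 0.191 and 0.418), with DESeq2 (0.147), with DESeq2 size factors (0.0555) and with no filter (0.116), and under total-count scaling it was 0.07, of opposite sign. The 7-day fall was lost without the second untreated library (0.105) and under total-count scaling (0.155), and the 4-day difference from MS023 without any 1 library (0.0982 to 0.179) and with DESeq2 (0.0994).

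The Dex rise of ERRFI1 stood in pretreated cells too. After GSK591 it went to 55.3 and 51.1 CPM at 15 min and 48.5 and 47.7 CPM at 3 h, and after MS023 to 63.7 and 53.7 CPM and 53.7 and 49.97 CPM. No library with Dex overlapped any library without it. The rises were 1.51 ± 0.13 (edgeR adjusted p = 7.59e-13) and 1.37 ± 0.13 (4.93e-12) after GSK591, and 1.07 ± 0.11 (1.22e-09) and 0.89 ± 0.11 (2.88e-08) after MS023. They held without any 1 library and under each other setting tried. The interaction with GSK591 at 3 h was 0.36 ± 0.17 (unadjusted p = 0.0401, adjusted p = 0.53), and those with MS023 were -0.27 ± 0.16 at 15 min and -0.11 ± 0.16 at 3 h, so no difference between the arms was called.

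**Figure D3:**
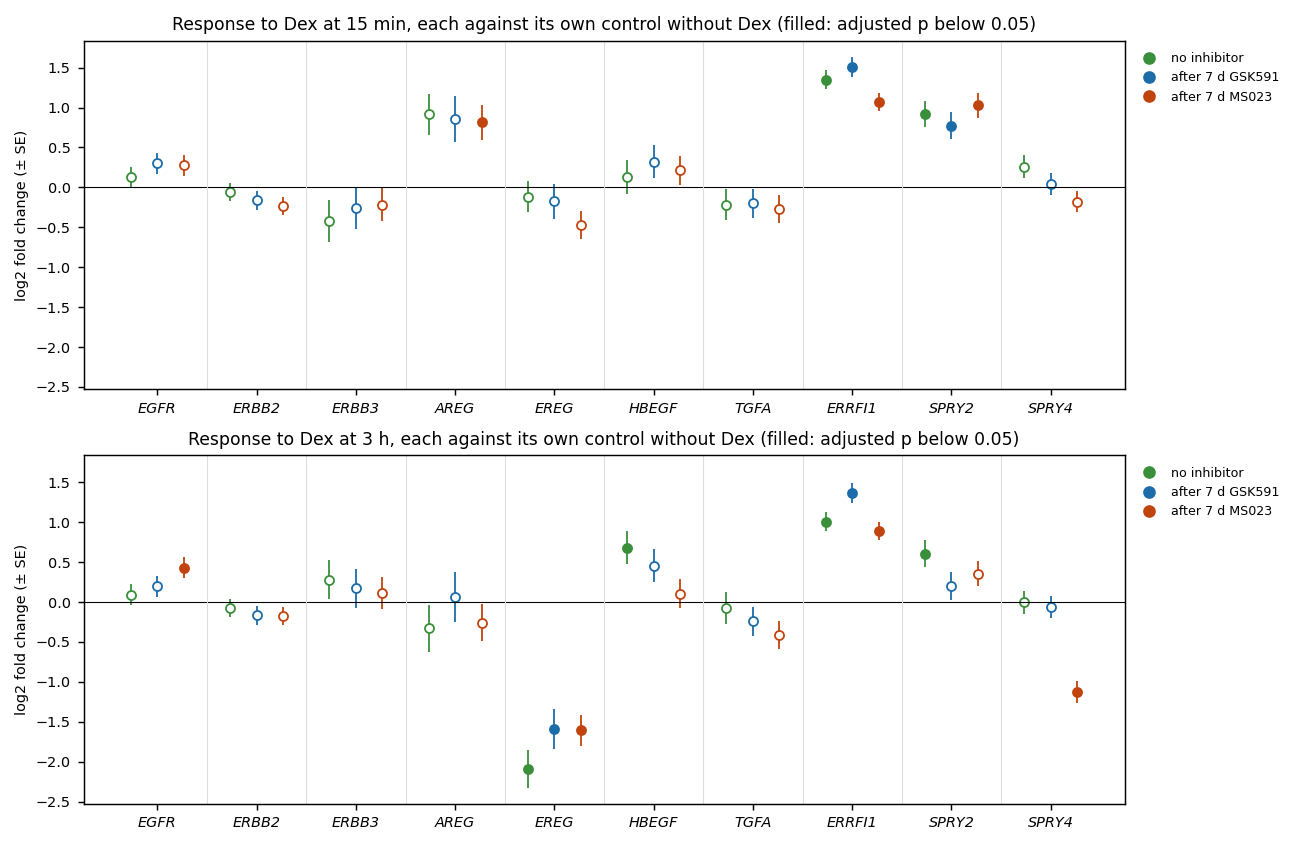
Log2 fold changes (vertical axis, ± SE from edgeR) of the 10 genes at 15 min (upper panel) and 3 h (lower panel) of Dex, without inhibitor (green), after 7 days of GSK591 (blue) and after 7 days of MS023 (orange), each against its own group without Dex. Filled points passed the adjusted p threshold of 0.05. ERRFI1 is above 0.8 in all 6 contrasts, EREG is below -1.5 in the 3 contrasts at 3 h, and SPRY4 departs from 0 after MS023 at 3 h.

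SPRY2 followed ERRFI1 at lower amplitude. Untreated cells had 9.68 and 9.98 CPM, Dex for 15 min gave 17.8 and 19.3 CPM, and Dex for 3 h gave 15.6 and 14.3 CPM. All Dex libraries lay above the untreated ones. SPRY2 rose by 0.91 ± 0.16 at 15 min (edgeR adjusted p = 0.000301) and by 0.61 ± 0.17 at 3 h (0.0122), the latter lost without the first Dex library (0.121), without either untreated library (0.104 and 0.0755) and with DESeq2 (0.0538). After pretreatment the 15 min rise was 0.77 ± 0.17 with GSK591 (16.7 and 15.7 CPM against 8.37 and 10.6 CPM, adjusted p = 0.00637) and 1.03 ± 0.16 with MS023 (17.7 and 18.9 CPM against 8.22 and 9.70 CPM, 1.16e-05).

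By 3 h SPRY2 had come down in pretreated cells, to 10.9 and 10.8 CPM after GSK591 and 10.0 and 12.9 CPM after MS023, and neither rise over the inhibitor alone was called (0.20, 95% confidence interval -0.16 to 0.57, and 0.36, 0.03 to 0.68). From 15 min to 3 h SPRY2 fell by 0.57 ± 0.17 after GSK591 (edgeR adjusted p = 0.0147) and by 0.67 ± 0.15 after MS023 (0.00128). Without inhibitor the 3 h libraries (15.6 and 14.3 CPM) also lay below the 15 min ones (17.8 and 19.3 CPM), a difference that was not called. The interactions at 3 h were -0.41 ± 0.25 and -0.25 ± 0.23 and not called. The 15 min rise after GSK591 was lost without the first library of either group (0.274 and 0.0534) and with the compared groups alone (0.0512). The fall after GSK591 was lost without any 1 library (0.0661 to 0.0908) and with DESeq2 (0.05), and that after MS023 without its first 3 h library (0.0945). Under total-count scaling neither 15 min rise in pretreated cells (0.181 and 0.0797) nor either fall (0.32 and 0.185) was called.

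SPRY4, on the minus strand at chr5:142310427-142326455, was the gene on which MS023 changed the Dex response. Without inhibitor it had 16.7 and 17.6 CPM, then 19.2 and 22.0 CPM at 15 min and 18.4 and 15.8 CPM at 3 h of Dex. After GSK591 it had 20.9 and 22.0 CPM, then 24.2 and 20.3 CPM and 22.3 and 18.7 CPM. After MS023 it had 22.8 and 23.7 CPM, then 20.4 and 20.7 CPM at 15 min and 10.8 and 10.5 CPM at 3 h. These last 2 libraries were the lowest of all 30, and in the other series the groups with 3 h of Dex overlapped those without. SPRY4 fell at 3 h after MS023 by 1.13 ± 0.14 (edgeR adjusted p = 8.36e-09), to 0.457 of the level before Dex, against differences of -0.0047 (95% confidence interval -0.29 to 0.28) without inhibitor and -0.06 (-0.35 to 0.22) after GSK591. From 15 min to 3 h after MS023 it fell by 0.95 ± 0.14 (1.03e-06).

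The difference between the SPRY4 responses was tested directly. The interaction of MS023 and Dex at 3 h was -1.12 ± 0.20 (edgeR adjusted p = 0.00239) and held without any 1 of the 8 libraries (-1.227 to -1.004). It was 1 of 51 interactions called among all genes (0.223%), and the only one among the 10. Under total-count scaling it was -1.29 and not called (0.365), as no gene was. No gene of the 10 had a called interaction for GSK591 at 15 min (0.00436% of all genes called), GSK591 at 3 h (0.223%) or MS023 at 15 min (0.00436%). In those 3 tests 0, 1 and 1 of the 10 had an unadjusted p below 0.05 in edgeR, and DESeq2 called 0 in each.

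Without Dex the inhibitors moved SPRY4 slightly upward. GSK591 gave 22.1 and 23.2 CPM at 2 days, 24.1 and 20.8 CPM at 4 days, and 20.9 and 22.0 CPM at 7 days. MS023 gave 20.0 and 17.6 CPM, 22.3 and 21.4 CPM, and 22.8 and 23.7 CPM. The 2-day MS023 libraries reached into the untreated range and the other 10 lay above it. SPRY4 rose with GSK591 at 4 days by 0.39 ± 0.14 (edgeR adjusted p = 0.0438) and with MS023 at 7 days by 0.44 ± 0.13 (0.0219). Both calls were lost without any 1 library (0.0506 to 0.39, and 0.0775 to 0.17) and with DESeq2 (0.109 and 0.0644), and the first also with no filter on low counts (0.111).

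With either inhibitor given together with Dex for 3 h, none of the 10 genes was called against Dex alone. With GSK591 0 of 10 were called by edgeR, by DESeq2 or at an unadjusted p below 0.05, and over all genes 0% were called (0 of 22919, with 1306 at an unadjusted p below 0.05 and 0 called by DESeq2). With MS023 0 of 10 were called by edgeR or DESeq2 (0.196% of all genes by edgeR), and 2 had an unadjusted p below 0.05. One was EGFR, at 45.2 and 59.0 CPM against 36.3 and 40.1 CPM with Dex alone (difference 0.45, 95% confidence interval 0.20 to 0.71, adjusted p = 0.0858), and the higher value came from the library that stood apart. Without that library the EGFR difference was 0.24 (0.793), and without the other library of its group it was 0.62 and called (0.000839). The other was HBEGF, at 8.53 and 9.49 CPM against 11.8 and 13.2 CPM (-0.47, -0.87 to -0.06, 0.27). ERRFI1 had 58.5 and 53.6 CPM with GSK591 and 55.4 and 68.9 CPM with MS023, around the 54.4 and 54.2 CPM of Dex alone (differences 0.04, -0.18 to 0.27, and 0.20, -0.03 to 0.42). EREG stayed low, at 2.55 and 3.22 CPM and at 3.06 and 3.13 CPM.

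Among 57 other genes of the pathway (ligands, ERBB4, sheddases, relay proteins, negative regulators and genes that ERK signalling drives), 54 were tested. At 15 min of Dex 3 rose and 1 fell, where 0.96% and 0.301% of all genes did. At 3 h 5 rose and 8 fell, where 6.11% and 4.41% of all genes did, with a median log2 fold change of -0.12 against -0.01 over all genes. Of the 12 ERK-driven genes 6 fell at 3 h and 0 rose (median -0.78). FOSL1, an AP-1 subunit, went from 27.6 and 26.3 CPM to 11.2 and 10.6 CPM (-1.30 ± 0.15, edgeR adjusted p = 6.77e-09), and ETV4, an ETS factor, from 29.4 and 33.0 CPM to 18.2 and 13.8 CPM (-0.96 ± 0.13, 3.17e-07).

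With 3 h of Dex the relay and negative regulator lists held the rises. SHC1, an adaptor that carries the signal from the receptor to RAS, went from 35.8 and 36.5 CPM to 64.3 and 53.4 CPM (0.70 ± 0.12, edgeR adjusted p = 2.19e-05), and MAP2K2, the kinase MEK2, from 14.5 and 13.9 CPM to 22.2 and 23.7 CPM (0.69 ± 0.16, 0.00136). SPRY1, the relative of SPRY2 and SPRY4, went from 4.56 and 4.53 CPM to 12.7 and 12.3 CPM (1.46 ± 0.20, 2.27e-07). SOCS2, a suppressor of cytokine signalling, fell from 31.2 and 39.8 CPM to 10.2 and 8.67 CPM (-1.91 ± 0.15, 5.44e-14). Of 17 relay genes 3 rose and 0 fell, and of 17 negative regulators 2 rose and 1 fell, where 6.11% and 4.41% of all genes did. The counts of negative regulators are near those shares. Among the Sprouty genes SPRY1 and SPRY2 rose at 3 h, while SPRY4 differed by -0.0047 from untreated cells.

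After pretreatment the pathway counts at 3 h of Dex were 4 rises and 11 falls with GSK591 (median -0.06, against 5.39% and 4.46% of all genes) and 5 rises and 10 falls with MS023 (median -0.11, against 5.72% and 5.38%). Of the 12 ERK-driven genes 7 fell and 0 rose in each. NRG1, the neuregulin that binds ERBB3, fell after GSK591 from 74.4 and 71.7 CPM to 29.3 and 25.8 CPM (-1.41 ± 0.11, edgeR adjusted p = 7.94e-14). The NRG1 level was also lower at 3 h of Dex in the other series. Without inhibitor it had 52.5 and 50.88 CPM and then 28.06 and 30.28 CPM. After MS023 it had 62.25 and 56.02 CPM and then 34.05 and 35.21 CPM. DUSP4, a phosphatase that ERK induces and that acts on ERK, fell after MS023 from 215 and 214 CPM to 77.2 and 88.9 CPM (-1.37 ± 0.10, 4.08e-15), against 177 and 201 CPM and then 108 and 119 CPM without inhibitor. Its interaction with MS023 was called (-0.63 ± 0.14, adjusted p = 0.0358), and it was the only one of the 54 genes for which that was so. With GSK591 the only called interaction at 3 h was that of PHLDA1, which went from 88.8 and 95.5 CPM to 111 and 116 CPM with Dex after GSK591 and from 85.2 and 87.2 CPM to 64.6 and 64.7 CPM without it (0.71 ± 0.15, 0.0189). Both were named after their values were seen.

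Without Dex, 7 days of GSK591 gave 6 rises and 4 falls among the 54 (6.68% and 6.52% of all genes), and 7 days of MS023 gave 5 and 6 (7.13% and 6.51%). EGR1, an immediate-early transcription factor, rose with both, from 1.67 and 1.71 CPM to 7.67 and 7.24 CPM with GSK591 (2.13 ± 0.30, edgeR adjusted p = 4.75e-07) and to 5.45 and 5.43 CPM with MS023 (1.68 ± 0.29, 4.06e-05). NRG4, a ligand of ERBB4, rose by 0.82 ± 0.23 (0.0122) and 0.84 ± 0.22 (0.00597). FOSL1 fell by 0.63 ± 0.15 (0.00211) and 1.02 ± 0.14 (7.01e-07). SOCS2 fell with MS023 to 10.2 and 12.7 CPM (-1.63 ± 0.14, 2.37e-12), and SPRY1 rose with it by 0.93 ± 0.20 (0.000738).

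The genes whose levels most resembled those of ERRFI1 over the 15 group means of log2 CPM were PER1, a circadian clock gene (Pearson r = 0.951), AC026461.3 (0.946) and POU5F1 (0.94), among the 11107 other genes that averaged 5 CPM or more. For EGFR they were LINC00842 (0.936), MED15, a Mediator subunit (0.927), and PLEC, the cytolinker plectin (0.921). AREG and EREG, neighbours on the chromosome, had r = 0.57. These values describe 15 groups of 1 scaled table.

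The authors' deposited tables of comparisons with untreated cells list 9 of the 10 genes under these symbols, ERRFI1 not being found by symbol, and were set beside the edgeR results for 8 comparisons. The authors' deposited tables called 29 of the 72 pairs of gene and comparison at an adjusted p below 0.05, edgeR called 18, and the 13 called by both had the same direction. In the order Dex 15 min, Dex 3 h, GSK591 at 2, 4 and 7 days and MS023 at 2, 4 and 7 days, the authors' deposited tables called 3.93%, 21.9%, 14.7%, 26.8%, 23.8%, 17.7%, 22.5% and 22% of their genes. The mean signal per gene in the authors' deposited tables is 2680 for EGFR and 41.7 for HBEGF, while the counts used here run from 182 to 603 and from 61 to 153 per library, so the authors' deposited tables come from other counts than these.

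In the authors' deposited table EGFR was lower with MS023 by -0.681, -0.891 and -0.625 on the log2 scale at 2, 4 and 7 days. It was also called lower with GSK591 in the authors' deposited table, at -0.469 (adjusted p = 1.42e-11), -0.507 (4.6e-14) and -0.338 (1.45e-06), where edgeR called none of the 3. EREG at 3 h of Dex was -1.96 in the authors' deposited table. AREG at 15 min of Dex, just outside the edgeR threshold, was 0.782 with an adjusted p of 0.00217 in the authors' deposited table. AREG was also called there at 2 and 4 days of GSK591 (-0.664 and -0.767) and at 2 and 7 days of MS023 (-0.578 and 1.04). Further calls there were EGFR at 15 min of Dex (0.272), and ERBB3 (0.823) and EREG (0.371) at 7 days of MS023. None of these differences was called by edgeR. For TGFA the authors' deposited table gave -0.951 at 3 h of Dex (1.35e-05) and -0.431 at 7 days of MS023 (0.0335), where edgeR gave -0.08 and 0.36, neither called. The authors' deposited table also called TGFA lower at 2 days of GSK591 (-0.617) and at 2 and 4 days of MS023 (-0.738 and -0.662). The edgeR fit called none of these. The TGFA rise at 7 days of GSK591 was not called in the authors' deposited table (0.375 with an adjusted p of 0.068). Nor were the SPRY4 rises at 4 days of GSK591 and 7 days of MS023 (0.377 with an adjusted p of 0.0911, and 0.219 with 0.336). The HBEGF rise at 3 h of Dex (0.39 with 0.22) and the ERBB3 rise at 2 days of MS023 (0.485 with 0.0972) were not called there either.

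**Figure D4:**
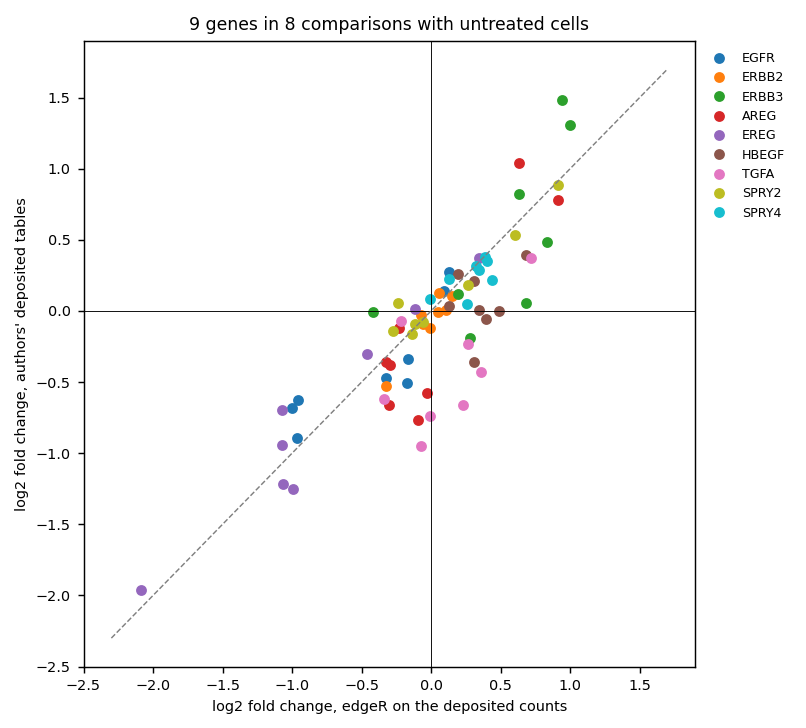
Log2 fold changes of 9 genes in 8 comparisons with untreated cells, from edgeR on the deposited counts (horizontal axis) and in the authors' deposited tables (vertical axis). Each point is 1 gene in 1 comparison and the dashed line marks equal values. EREG at 3 h of Dex lies near -2 on both axes, and several TGFA points lie below the line.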

How the data were processed

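The authors deposited a table of whole-number read counts per gene for 30 PRO-seq libraries of A549 cells, made with Subread and featureCounts 2.0.1 on hg38, per the submitters' processing notes. The feature type and use of strand are not given in the sources used here. The authors also deposited tables of comparisons with untreated cells, whose log2 fold changes and adjusted p-values are printed as deposited; their mean signal per gene is an average over samples, per the file headers.

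Genes were placed with GENCODE 29. Counts were fitted with edgeR 4.0.16 (limma 3.58.1, R 4.3.3; quasi-likelihood test, robust, TMM scaling) in 1 fit of all 15 groups with 15 residual degrees of freedom. The filter filterByExpr (minimum count 10, minimum total 15) left 22919 genes. P-values were adjusted by Benjamini-Hochberg within each of 24 comparisons, and 0.05 was the limit for a call. An interaction is the Dex response after an inhibitor minus that without it. The comparisons of 3 h with 15 min of Dex were added after the values were seen. CPM per kilobase used exonic length.

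Other settings were DESeq2 1.42.0, its size factors, the compared groups alone, no filter, a replicate block, total-count scaling, no mitochondrial or rRNA genes, and leaving out each library in turn. The steps were tested on simulated data with 200 changed genes. Named genes were the 10 genes, up to 3 called pathway genes per direction in 5 comparisons, and the 3 genes most like ERRFI1 and EGFR. The genes and lists were chosen with earlier results of these data known. No molecular identifiers are mentioned in the labels. Figures were drawn with Python 3.11.15 and matplotlib 3.10.9.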

Additional observations from a re-analysis of the deposited data

Results flagged for a closer look

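The response of SPRY4 to 3 h of Dex differed between cells without inhibitor and cells given MS023 for 7 days, by the test of that difference (-1.12 on the log2 scale, edgeR's quasi-likelihood test, adjusted p = 0.00239). SPRY4 had 22.8 and 23.7 CPM after MS023 and 10.8 and 10.5 CPM once Dex was added, whereas without inhibitor it had 16.7 and 17.6 CPM and then 18.4 and 15.8 CPM. The mitochondrial share of counts was 58.7% and 59.6% in the MS023 libraries without Dex and 76.0% and 73.4% in the untreated ones. The SPRY4 call held in a fit without mitochondrial and rRNA genes, and the part of this share in the result was not tested further. Groups of 2 libraries are too small for a test of single outlying libraries.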

How the results depend on the processing

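Of 51 calls on single genes, 21 held in all 7 other settings, 29 held whichever library of the compared groups was left out, and 19 held in both. Scaling by total counts moved most: the genes called of 10 became 7, 6 and 9 with MS023 at 2, 4 and 7 days (with 9228, 11285 and 16196 of all 22919 genes called), 0 with GSK591 at 2 and at 7 days, 0, 1 and 9 for GSK591 against MS023 at 2, 4 and 7 days (16029 of all genes at 7 days), 1 for each of Dex 15 min after GSK591 and after MS023, 1 for 3 h against 15 min of Dex after GSK591, and 0 for the interaction of MS023 with 3 h of Dex. Signs reversed under this scaling for EGFR with MS023 at 7 days (0.065), EGFR for GSK591 against MS023 at 7 days (-0.25), ERBB2 with MS023 at 7 days (0.69) and ERRFI1 with GSK591 at 4 days (0.067). DESeq2 called 2 genes for Dex 3 h, 2 for GSK591 at 4 days, 1 for MS023 at 7 days, 1 for GSK591 against MS023 at 4 days and 1 for 3 h against 15 min of Dex after GSK591. The compared groups alone gave 1 for Dex 15 min after GSK591, 2 for GSK591 at 2 days and 5 for MS023 at 7 days, and no filter gave 2 for GSK591 at 4 days. The causes were not tested. In several comparisons every fit with 1 library left out called fewer of the 10 genes than the full fit. These were Dex 3 h, Dex 3 h after MS023, MS023 at 2 and at 7 days, and GSK591 at 4 days. The same held for GSK591 against MS023 at 4 days and for 3 h against 15 min of Dex after GSK591. In the other comparisons such fits called as many or fewer. Exceptions were Dex 15 min after GSK591 and MS023 with Dex, where some called more. A group left with 1 library was assumed to vary like the others.

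The labels number the libraries of each group 1 and 2 but do not say what a number shares. Deviations of same-numbered libraries from their group means correlated between -0.451 and 0.487 over 105 pairs of groups (median 0.0214), so the numbers were not taken as pairs. A fit with the replicate number as a block called 3 genes for Dex 15 min, where AREG was added, and 4 for MS023 at 7 days, where ERBB3 was added, and it ended no call. Counts per library were 19 to 173 for AREG, 20 to 207 for EREG and 28 to 131 for ERBB3, which limits their precision.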
